A study of Mus musculus with 4 samples.

Results

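The vascular endothelial growth factor (VEGF) and angiopoietin genes examined here were the ligands Vegfa, Angpt1 and Angpt2, the VEGF receptors Kdr, Flt1 and Flt4, the co-receptors Nrp1 and Nrp2, and the angiopoietin receptors Tek and Tie1. They were chosen by name, as the main ligands and receptors of both pathways, with earlier results of these data known. All 10 were present among the 54464 genes of the deposited count matrix. The data were single-nucleus RNA-Seq (snRNA-Seq) counts of liver from 3 mice with a hepatocyte-specific Nampt knockout (HNKO) and 3 WT littermates after 6 weeks on a purified control diet (PD). All mice were C57BL6/BomTac and carried a floxed Nampt gene, which encodes the rate-limiting enzyme of NAD salvage. HNKO mice also carried Alb-Cre, which is driven by the albumin promoter and is active in hepatocytes, so that the knockout is aimed at hepatocytes by design. Whether the Nampt gene is intact in the other liver cells of HNKO mice, cholangiocytes included, was not tested. Nuclei were stained with 1 hashtag antibody per mouse, sorted, pooled and sequenced from the 3′ end, and the mice could be told apart only through the hashtag. The mouse was the replicate throughout.

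In the liver, VEGF-A is secreted by hepatocytes, among other cells, and acts on the sinusoidal endothelium next to them. Kdr (VEGFR2) is its main signalling receptor, Flt1 (VEGFR1) binds it tightly and can act as a decoy, and Flt4 (VEGFR3) is the receptor of the related ligands VEGF-C and VEGF-D. Neuropilins strengthen VEGF binding and also bind semaphorins. Angiopoietin 1, made by cells around vessels, activates the receptor TIE2 (encoded by Tek) and keeps the endothelium quiet, angiopoietin 2 acts largely against it, and TIE1 is a partner of TIE2 that binds neither with high affinity.

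The matrix held 5193 nuclei. Of these, 4410 carried a hepatocyte annotation by the authors, 245 an endothelial, 171 a stellate, 177 a CD45+, 80 a Kupffer and 110 a cholangiocyte annotation. Mice contributed 629 to 1063 nuclei and 3766530 to 7763270 unique molecular identifiers (UMIs), with fewer of both in every WT mouse than in any HNKO mouse. No cell barcode occurred more than once, and the barcodes did not carry the pool of origin, so that values within a pool could not be computed. In HNKO mouse 3 a median of 45.5% of the hashtag counts of a nucleus came from its own hashtag, against 65.2% to 78.0% in the other mice, and in endothelial nuclei of all mice this median was 47.5%, against 70.4% in hepatocytes. Results that rest on the hashtags were therefore also computed for nuclei with at least 50% of the counts from their own hashtag. The deposited annotation was checked with marker genes that are not among the 10 genes. Of the endothelial markers 9 of 10 were highest in endothelial nuclei, of the stellate markers 10 of 10 in stellate nuclei, of the Kupffer markers 7 of 7 in Kupffer nuclei, of the CD45 markers 7 of 8 in CD45+ nuclei, and of the hepatocyte and cholangiocyte markers 8 of 8 each in their own type. Nampt itself did not separate the genotypes in hepatocytes, with 84.8, 105 and 96.9 UMIs per 1000000 UMIs (CPM) in WT mice 1, 2 and 3 and 84.1, 148 and 90.8 CPM in HNKO mice 1, 2 and 3 (log2 fold change 0.03 with an SE of 0.27, FDR 0.98 by edgeR). Reads from the 3′ end do not show whether the floxed exon is present, and WT and HNKO below are the groups as labelled.

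Levels below are in CPM, the UMIs of a gene per 1000000 UMIs of all genes in the same mouse and cell type. Means are over mice with at least 10 nuclei of the type, which are all 6 mice for hepatocytes, endothelial and stellate nuclei, 5 for CD45+ nuclei, and the 3 HNKO mice alone for Kupffer nuclei and cholangiocytes. The cell types were drawn by the authors from the expression of all genes in these nuclei, these 10 included, so that differences between types are described and not tested. Levels are not compared between genes, since UMIs from nuclear pre-mRNA depend on the length and make-up of a gene.

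The ligand Vegfa (chr17:46016993-46032369, minus strand, GRCm38, GENCODE annotation, as for all genes below, each of them protein-coding) was mainly a hepatocyte transcript. Hepatocytes held 96.8% of its 7002 UMIs, against 90.2% of the UMIs of all genes. Its hepatocyte level was 243, 244 and 204 CPM in WT mice 1, 2 and 3 and 142, 300 and 239 CPM in HNKO mice 1, 2 and 3. The lowest and the highest values both belonged to HNKO mice, and the WT values lay between them. Of all hepatocyte nuclei 67.5% had a Vegfa UMI (exact binomial 95% interval 66.1 to 68.9, counting error only), and 22.6% had one after each nucleus was thinned to 1000 UMIs. In endothelial nuclei these shares were 15.9% and 4.08%, at a median depth of 3017 UMIs per nucleus against 4484 in hepatocytes. The mean level was 229 ± 52.2 CPM in hepatocytes (SD, n = 6), 129 ± 107 in cholangiocytes (n = 3), 96.0 ± 40.8 in CD45+ nuclei (n = 5), 69.8 ± 23.0 in endothelial nuclei (n = 6), 46.1 ± 52.5 in stellate nuclei (n = 6) and 22.9 ± 11.7 in Kupffer nuclei (n = 3). Each type in this order overlapped with the next when single mice were compared.

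Hepatocyte RNA was also found in the other nuclei, and Vegfa was set beside it. In endothelial nuclei pooled over mice, Vegfa reached 29.0% of its hepatocyte level, and the 8 hepatocyte marker genes reached 22.4% to 51.3% of theirs, with a median of 29.3%. In CD45+ nuclei Vegfa was at 42.2% and the markers had a median of 41.4%. In Kupffer nuclei Vegfa was at 7.40% of the hepatocyte level, below 7 of the 8 markers. In stellate nuclei it was at 22.4%, above 7 of the 8 markers, which reached 9.42% to 38.5% with a median of 15.03%. In all 4 types the Vegfa level lay between the lowest and the highest of the hepatocyte markers. Of the 35 stellate Vegfa UMIs, 20 came from HNKO mouse 3 (148 CPM), where the other mice had 6.85 to 52.0 CPM. The cluster Cholangiocyte 2 (34 nuclei) differed, with Vegfa at 183 CPM, or 81.0% of the hepatocyte level, above all 8 hepatocyte markers, which reached 4.01% to 36.1%. Cholangiocyte 1 (76 nuclei) had 58.2 CPM of Vegfa, or 25.8%, where the markers reached 4.54% to 108%. These clusters rested on 27 and 30 Vegfa UMIs and nearly all of their nuclei came from HNKO mice.

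**Figure D1:**
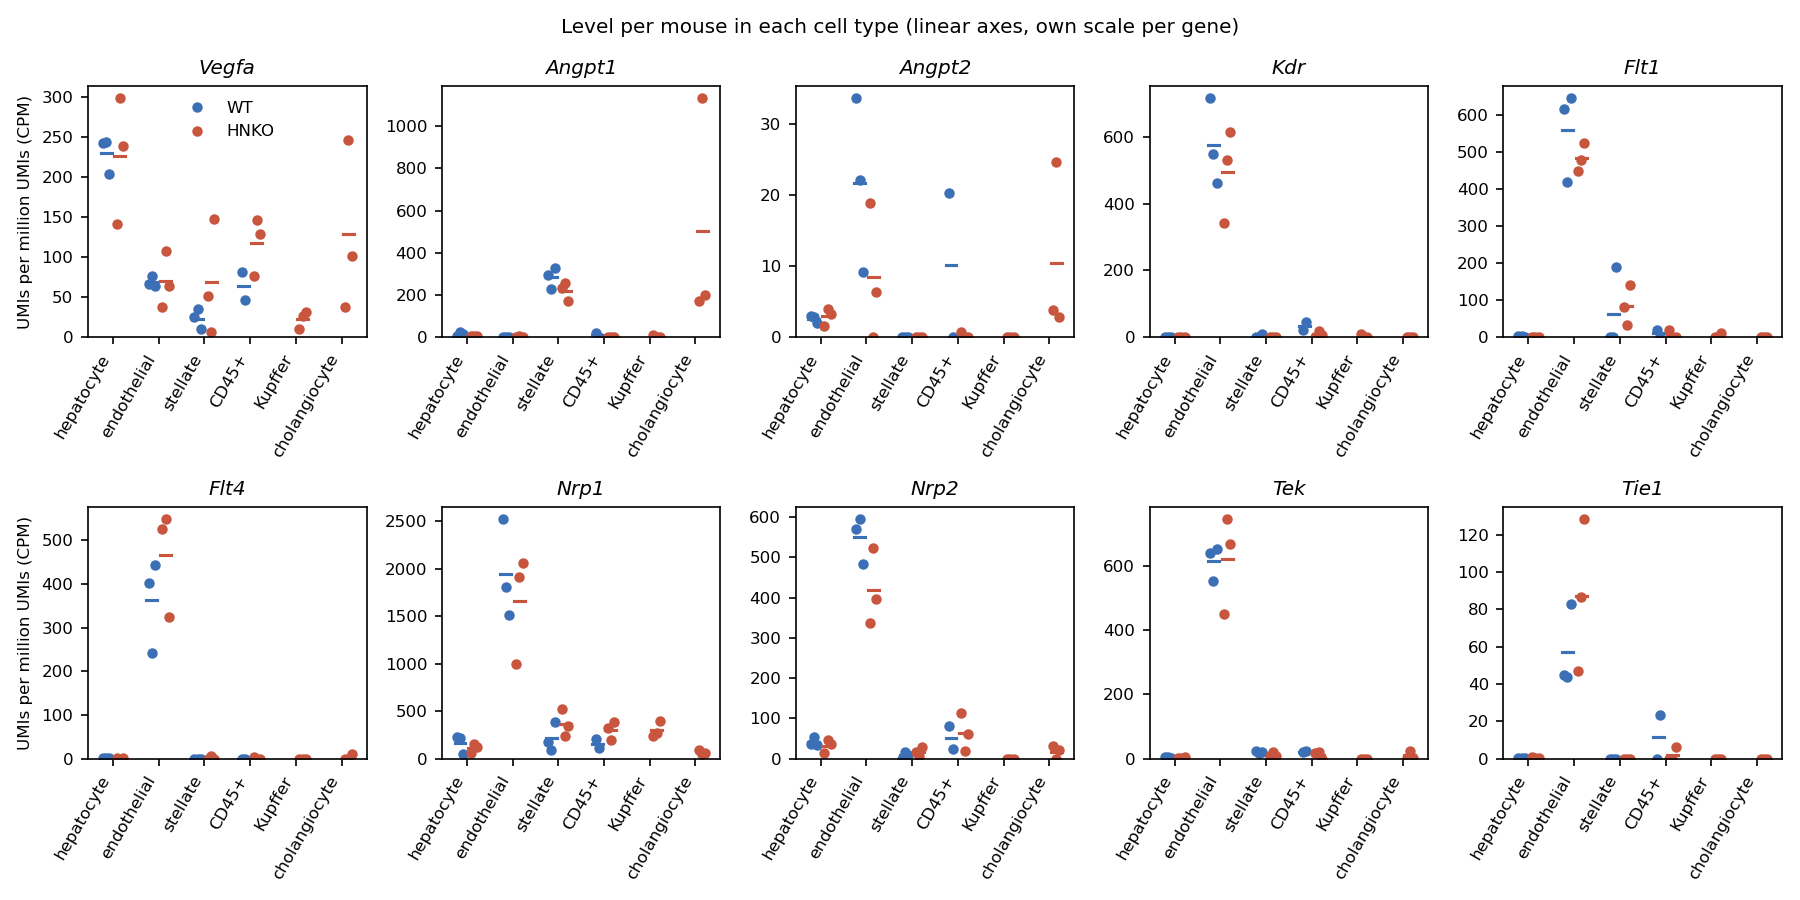
Level of each gene (CPM, linear axes that start at 0 and differ in scale between genes) in each cell type, 1 point per mouse with at least 10 nuclei of the type, WT in blue and HNKO in red, with the mean of each genotype as a line. Kdr, Flt1, Flt4, Nrp1, Nrp2, Tek and Tie1 stood highest in endothelial nuclei of every mouse, Vegfa had its highest mean in hepatocytes, and Angpt1 stood out in stellate nuclei and cholangiocytes.

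Angpt1 (chr15:42424723-42676977, minus strand) had its highest levels in stellate nuclei and cholangiocytes. Of its UMIs, hepatocytes held 45.6% (27.4% to 80.7% by mouse), against 90.2% of the UMIs of all genes, stellate nuclei 26.7% and cholangiocytes 26.5%. In stellate nuclei, the liver pericytes, it was at 297, 229 and 330 CPM in WT mice 1, 2 and 3 and at 231, 256 and 170 CPM in HNKO mice 1, 2 and 3, from 13 to 40 UMIs per mouse. The genotypes overlapped. No stellate value overlapped with any hepatocyte value, which ran from 4.90 to 23.3 CPM, and only 1 Angpt1 UMI was found in all 245 endothelial nuclei, the cells that carry its receptor. The stellate UMIs were unevenly spread, since 33.3% of stellate nuclei had one (interval 26.3 to 40.9) and the richest nucleus had 19. In hepatocytes 3.74% of nuclei had an Angpt1 UMI.

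Among cholangiocytes, Angpt1 differed between the 2 clusters of the authors. Cholangiocyte 2 held 833 CPM and Cholangiocyte 1 held 89.4 CPM. By mouse, cholangiocytes had 173, 1133 and 200 CPM in HNKO mice 1, 2 and 3, and the mouse that stood apart, HNKO mouse 2, had the fewest cholangiocyte nuclei of the 3, with 10 against 40 and 58. The WT mice had 2 cholangiocyte nuclei in all, 1 each in WT mice 1 and 2, and these held 2 and 5 Angpt1 UMIs, so that the WT level could not be compared. The order of the means was cholangiocytes (502 ± 547 CPM, n = 3), stellate nuclei (252 ± 56.1 CPM, n = 6) and hepatocytes (10.6 ± 7.18 CPM, n = 6), and of these neighbours only stellate nuclei and hepatocytes did not overlap. A gene of the opposite strand, Gm17473, overlaps the start of Angpt1 and had 23 UMIs against 639 for Angpt1.

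Angpt2 (chr8:18690263-18741562, minus strand), which endothelial cells are known to store and release, was near the limit of what these data can show. Over all 5193 nuclei it had 100.6 UMIs, of which 83.4 were in hepatocytes and 13 in endothelial nuclei. The endothelial level was 33.6, 22.0 and 9.23 CPM in WT mice 1, 2 and 3 and 18.9, 0 and 6.41 CPM in HNKO mice 1, 2 and 3, from 0 to 6 UMIs per mouse. The hepatocyte level was 1.58 to 4.01 CPM, from 9 to 24 UMIs per mouse. In the 171 stellate and 80 Kupffer nuclei no UMI was found, which allows levels of up to 4.33 and 10.0 CPM by a floor of 3 counts over all mice. The gene lies inside Mcph1 (chr8:18595131-18803189), which runs on the opposite strand and had 1578 UMIs, so that the counts of Angpt2 are uncertain.

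**Figure D2:**
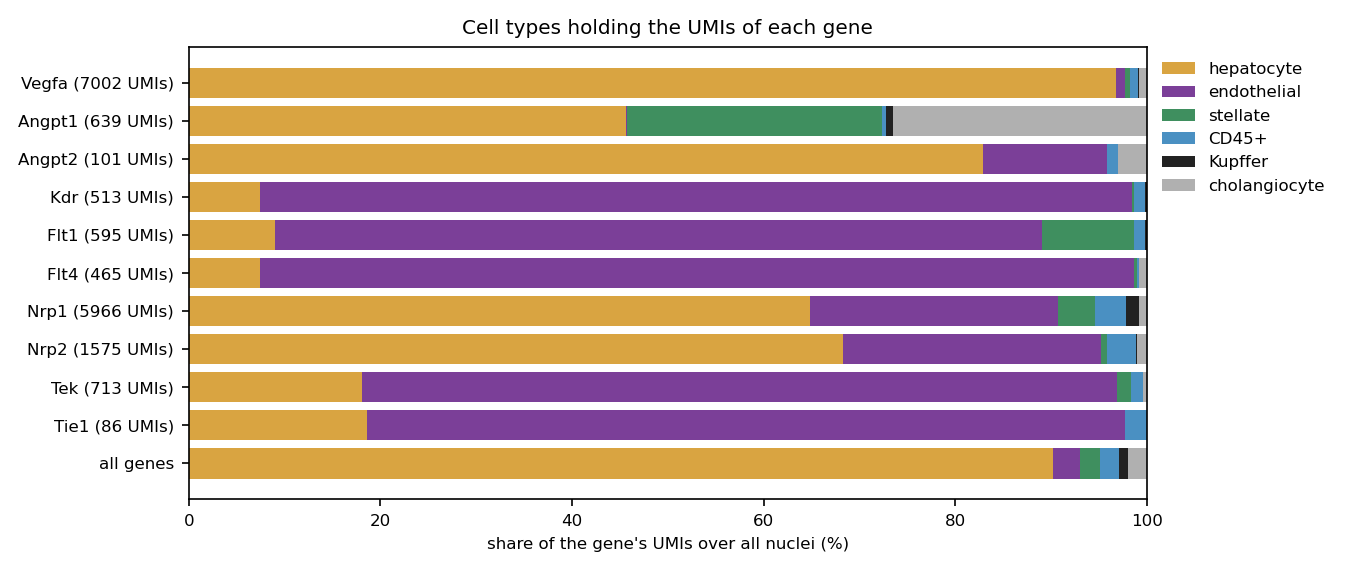
Share of the UMIs of each gene, summed over all mice, by cell type (horizontal axis in percent), with the UMI total of the gene in parentheses and the same split for all genes as the lowest bar. Endothelial nuclei held 78.8% to 91.3% of the UMIs of Kdr, Flt1, Flt4, Tek and Tie1 against 2.84% of all UMIs, whereas hepatocytes held 96.8% of those of Vegfa.

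The receptors Kdr (chr5:75932827-75978458, minus strand), Flt1 (chr5:147561604-147726011, minus strand), Flt4 (chr11:49609263-49652739, plus strand), Tek (chr4:94739289-94874976, plus strand) and Tie1 (chr4:118471191-118490061, minus strand) shared the same pattern. Endothelial nuclei made up 4.72% of nuclei and 2.84% of UMIs, and held 91.0% of the UMIs of Kdr, 80.0% of Flt1, 91.3% of Flt4, 78.8% of Tek and 79.1% of Tie1. In every mouse the endothelial level of each was above the level in every other type. At least 1 of these 5 receptors was detected in 239 of 245 endothelial nuclei (97.6%) and in 219 of 4410 hepatocyte nuclei (4.97%), although the hepatocyte nuclei were deeper.

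For 4 of these receptor genes, the 250 bases before the RefSeq transcription start (GRCm38.p6) are printed 5′ to 3′ on the strand of the gene. The windows are chr5:75978456-75978705 for Kdr, chr5:147726012-147726261 for Flt1, chr4:94739039-94739288 for Tek and chr4:118489850-118490099 for Tie1. By the GENCODE coordinates the Tie1 gene starts at 118490061 on the minus strand, so that most of its window lies inside the gene as annotated. The Kdr window reaches into its gene with its last bases only. Capitals mark GGAA or its reverse complement TTCC, the core that ETS family factors such as Erg and Fli1 bind.
Kdr: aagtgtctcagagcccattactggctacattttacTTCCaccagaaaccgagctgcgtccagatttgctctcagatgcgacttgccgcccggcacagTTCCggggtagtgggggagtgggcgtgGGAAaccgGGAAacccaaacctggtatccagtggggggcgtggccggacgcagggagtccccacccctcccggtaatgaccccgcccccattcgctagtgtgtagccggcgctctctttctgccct
Flt1: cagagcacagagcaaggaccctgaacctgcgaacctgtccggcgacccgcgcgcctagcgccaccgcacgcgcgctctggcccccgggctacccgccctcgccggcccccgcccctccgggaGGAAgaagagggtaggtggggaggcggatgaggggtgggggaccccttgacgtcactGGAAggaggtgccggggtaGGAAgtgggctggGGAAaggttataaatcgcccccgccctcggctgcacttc
Tek: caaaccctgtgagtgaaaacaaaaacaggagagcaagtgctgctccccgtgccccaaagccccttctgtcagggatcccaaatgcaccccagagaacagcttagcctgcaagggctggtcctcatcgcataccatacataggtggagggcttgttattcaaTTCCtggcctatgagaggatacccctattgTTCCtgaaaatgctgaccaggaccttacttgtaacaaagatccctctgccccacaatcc
Tie1: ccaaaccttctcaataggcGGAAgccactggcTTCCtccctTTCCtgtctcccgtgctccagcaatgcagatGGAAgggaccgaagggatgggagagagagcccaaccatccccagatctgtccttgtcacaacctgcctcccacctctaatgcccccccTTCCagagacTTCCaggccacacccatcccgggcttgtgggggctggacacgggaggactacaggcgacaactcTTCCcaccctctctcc
The core occurred 4 times in the windows of Kdr and Flt1, 2 times in that of Tek and 7 times in that of Tie1. It occurred at least once in 93.4% of all 32851 promoter windows of the same length, with a median of 3 and a middle range of 2 to 4 matches, so that the core is common and of these 4 windows only that of Tie1 lay above that range. A match describes these letters and shows no binding. RefSeq windows were matched for 8 of the 10 genes, and those for Angpt1 and Angpt2 were not used here.

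Kdr in endothelial nuclei was at 717, 550 and 462 CPM in WT mice 1, 2 and 3 and at 343, 531 and 615 CPM in HNKO mice 1, 2 and 3, from 50 to 109 UMIs per mouse. The HNKO values spanned the 2 lower WT values, and HNKO mouse 1 was the lowest of all. A Kdr UMI was found in 66.5% of endothelial nuclei (interval 60.2 to 72.4) and in 0.748% of hepatocyte nuclei, and in 32.2% and 0.249% after thinning. Hepatocyte sums held 0.899 to 1.82 CPM.

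Flt1 in endothelial nuclei was at 617, 418 and 646 CPM in WT mice and at 450, 479 and 525 CPM in HNKO mice 1, 2 and 3. The HNKO values lay inside the WT range. Unlike Kdr, Flt1 also had UMIs in stellate nuclei, with 0, 0 and 190 CPM in WT mice 1, 2 and 3 and 80.9, 34.2 and 140 CPM in HNKO mice 1, 2 and 3. A Flt1 UMI was found in 11.7% of stellate nuclei (interval 7.29 to 17.5), and in 2.26% of CD45+ nuclei, whereas a Kdr UMI was found in 0.585% of stellate nuclei. Endothelial marker genes in stellate nuclei summed to 167 to 341 CPM by mouse, with 8 of 10 detected, against 9461 to 13063 CPM in endothelial nuclei, and Stab2 was at 0 CPM in WT mouse 1, which had no Flt1 UMI, and in HNKO mouse 3, which had 140 CPM of Flt1. Their part in the stellate Flt1 values was not tested.

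Flt4 in endothelial nuclei was at 403, 242 and 443 CPM in WT mice 1, 2 and 3 and at 526, 547 and 323 CPM in HNKO mice 1, 2 and 3. HNKO mice 1 and 2 lay above all WT mice and HNKO mouse 3 between them. In most adult tissues Flt4 marks lymphatic vessels, and in liver also the sinusoids. Here 68.6% of endothelial nuclei had a Flt4 UMI (interval 62.4 to 74.3), the same share as for Flt1, compared with 0.748% of hepatocyte nuclei and 1 stellate nucleus.

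Tek in endothelial nuclei was at 639, 553 and 652 CPM in WT mice 1, 2 and 3 and at 449, 744 and 668 CPM in HNKO mice 1, 2 and 3. The HNKO mice lay on both sides of the WT mice. It was detected in 71.0% of endothelial and 2.65% of hepatocyte nuclei. Tie1, the partner receptor, was sparse, with 44.8, 44.0 and 83.1 CPM in WT mice 1, 2 and 3 and 47.2, 86.7 and 128 CPM in HNKO mice 1, 2 and 3, from 4 to 20 UMIs per mouse. A Tie1 UMI was found in 22.4% of endothelial nuclei and in 0.363% of hepatocyte nuclei.

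The co-receptors were spread more widely. Nrp1 (chr8:128358604-128503363, plus strand) in endothelial nuclei was at 2520, 1805 and 1514 CPM in WT mice 1, 2 and 3 and at 998, 1908 and 2063 CPM in HNKO mice 1, 2 and 3. The endothelial values of all mice were above those of every other type. The next types in order, Kupffer nuclei (302 ± 80.6 CPM, n = 3), stellate nuclei (292 ± 156 CPM, n = 6), CD45+ nuclei (247 ± 111 CPM, n = 5), hepatocytes (139 ± 76.2 CPM, n = 6) and cholangiocytes (67.5 ± 19.7 CPM, n = 3), overlapped from each neighbour to the next. Because hepatocytes were so many, they held 64.9% of the Nrp1 UMIs and endothelial nuclei 25.9%. Within the CD45+ nuclei, Nrp1 was at 467 CPM in CD45+ 1, 76.0 CPM in CD45+ 2 and 46.0 CPM in CD45+ 3.

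Nrp2 (chr1:62703285-62818695, plus strand) in endothelial nuclei was at 571, 594 and 485 CPM in WT mice 1, 2 and 3 and at 338, 523 and 397 CPM in HNKO mice 1, 2 and 3. HNKO mouse 2 lay among the WT mice, the others below them. Nrp2 was next highest in CD45+ nuclei (59.7 ± 39.6 CPM, n = 5) and in hepatocytes (37.2 ± 13.0 CPM, n = 6), which overlapped. In Kupffer nuclei of HNKO mice no Nrp2 UMI was found, where Nrp1 was at 243 to 394 CPM. Over all 80 Kupffer nuclei there were 2 Nrp2 UMIs, both in WT mouse 2.

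In hepatocytes, the neuropilins were compared between the clusters that the authors named Central and the other hepatocyte clusters. Different clusters made up the Central nuclei of different mice, since the cluster Central HNKO 1 (94 nuclei) came to 98.9% and Central HNKO 2 (78 nuclei) to 100% from a single mouse each, HNKO mice 1 and 3, and Central 1 (218 nuclei) held most of the Central nuclei of the other mice. Of the hepatocyte nuclei, those of the clusters called Central express pericentral genes, and Slc1a2, a pericentral glutamate transporter, was at least 50.9 times higher in them than in the other hepatocytes in each mouse. Nrp1 was higher in Central nuclei in 6 of 6 mice, with ratios of 1.201 to 3.81 and a median of 1.73. The levels were 631, 257 and 167 CPM in Central nuclei of WT mice 1, 2 and 3 against 199, 214 and 43.8 CPM in their other hepatocytes. In HNKO mice 1, 2 and 3 they were 82.9, 270 and 187 CPM against 54.0, 146 and 116 CPM. By single cluster, Nrp1 was at 320 CPM in Central 1, 84.6 CPM in Central HNKO 1 and 187 CPM in Central HNKO 2. The other hepatocyte clusters ran from 31.7 CPM (Periportal 2) to 262 CPM (Hepatocytes 4) and so overlapped with the Central clusters. Nrp2 was higher in Central nuclei in 5 of 6 mice, with a median ratio of 1.76, and WT mouse 2 was the exception at 0.921. Vegfa had no common direction, with ratios of 0.681 to 1.32. Stab2, an endothelial marker, was higher in Central nuclei in 5 of 6 mice (15.7 to 31.5 CPM in the other hepatocytes and 25.5 to 117 CPM in Central nuclei), Ptprb in 3 of 6, and their part in the Nrp1 and Nrp2 values was not tested. The clusters were made from these nuclei, so that no test is given.

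**Figure D3:**
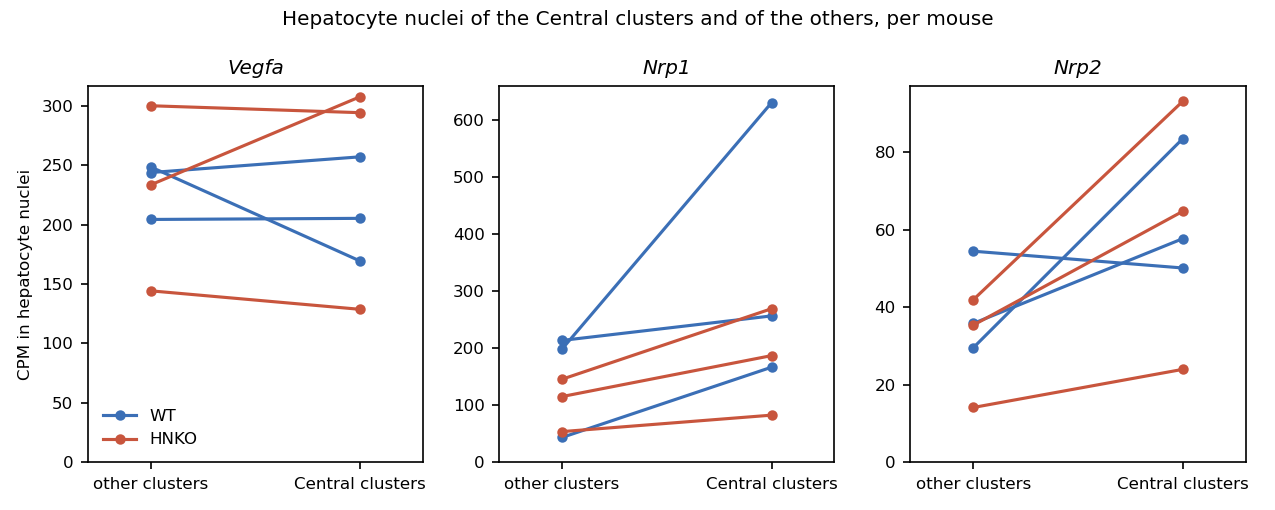
Level of Vegfa, Nrp1 and Nrp2 (CPM, linear axes from 0) in hepatocyte nuclei of the Central clusters and of all other hepatocyte clusters, 1 line per mouse, WT in blue and HNKO in red. Nrp1 was higher in the Central nuclei of all 6 mice, Nrp2 in 5 of 6, and Vegfa in 3 of 6.

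Endothelial nuclei were not uniform in their receptors. Of the 7 receptors and co-receptors, at least 3 were detected in 221 of 245 endothelial nuclei (90.2%), all 7 in 12 and none in 2. A split by the sinusoidal scavenger receptor Stab2, chosen after the values had been seen, left 227 nuclei with a Stab2 UMI and 18 without, the latter from 5 mice. The 18 nuclei held 429 CPM of Vwf, a marker of larger vessels, and 1121 CPM of Rspo3, a Wnt enhancer known from central vein endothelium, against 10.2 and 31.6 CPM in the others. Rspo3 was not confined to the endothelium, with 620 CPM in stellate nuclei. Endothelial nuclei with a Vwf UMI held 18 Rspo3 UMIs and those without held 78. Flt4 was at 65.9 CPM in the nuclei without Stab2 (exact Poisson 95% interval 18.0 to 169, from 4 UMIs) and at 475 CPM in nuclei with Stab2 (430 to 522). Nrp1 was at 907 CPM (683 to 1180) against 1680 CPM (1596 to 1768). Tie1 was higher without Stab2, at 198 CPM (102 to 346) against 63.2 CPM (47.7 to 82.1). Flt1 was at 725 CPM (527 to 974) against 488 CPM (443 to 536), and here as for Kdr, Nrp2 and Tek the intervals overlapped. A split by Vwf, also chosen after the values had been seen, left 11 nuclei with a Vwf UMI (5 mice) and 234 without. With Vwf, Tek was at 1238 CPM (961 to 1571) against 554 CPM (506 to 605). Flt1 was at 861 CPM (633 to 1145) against 481 CPM (437 to 529). Flt4 was lower with Vwf and Tie1 higher, also without overlap, and for Kdr, Nrp1 and Nrp2 the intervals overlapped. These intervals cover counting error only, since nuclei of a mouse are not replicates.

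**Figure D4:**
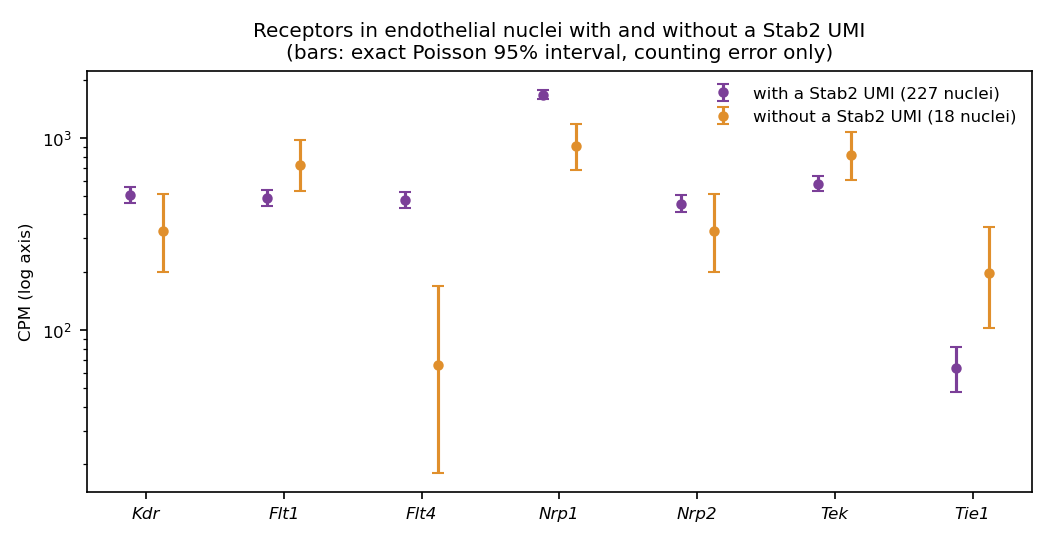
Level of the 7 receptors (CPM, log axis) in the 227 endothelial nuclei with a Stab2 UMI and the 18 without, pooled over mice, with exact Poisson 95% intervals that cover counting error only. Flt4 was at 475 CPM with and 65.9 CPM without Stab2, and Tie1 at 63.2 and 198 CPM.

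The stellate nuclei showed a like division. Of 171 stellate nuclei, 148 had a UMI of Reln, a gene of stellate cells, and 23 did not. This split was also chosen after the values had been seen. Flt1 was at 425 CPM (291 to 600) in nuclei without Reln and at 40.5 CPM (26.2 to 59.8) in those with it, and Nrp1 at 784 CPM (597 to 1011) and 276 CPM (236 to 320). Angpt1 went the other way, at 106 CPM (45.9 to 210) without and 263 CPM (224 to 307) with Reln.

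Across the 29 sums of a mouse and a cell type with at least 10 nuclei, the genes whose pattern was most like each member were found by Pearson's r of log2(CPM + 10), as a description. Points of 1 mouse share a library, and the depth of the sums differs between types. Kdr was most like Exoc3l2 (r = 0.97), Pde2a.1 (0.97) and Clec4g (0.97), Flt4 like Cd300lg (0.99), Afap1l1 (0.99) and Arhgef15 (0.98), and Tek like Fgd5 (0.96), Clec4g (0.96) and Exoc3l2 (0.95). Flt1 was most like Rapgef3 (0.93), Csgalnact1 (0.92) and Cdh13 (0.92), Nrp1 like Plpp1 (0.89), 6030498E09Rik (0.88) and Flt1 (0.88), and Nrp2 like F8 (0.93), Prickle1 (0.90) and Oit3 (0.89). Clec4g, Oit3 and F8 are known from liver sinusoidal endothelium. Angpt1 was most like Rab27b (0.97), Pamr1 (0.96) and Map2 (0.95), and Angpt2 like Gas2l1 (0.84), Trmt9b (0.77) and Pdcd2 (0.74). Tie1 had too few UMIs to enter. Among the members, Flt4 and Tek (r = 0.95) and Kdr and Tek (0.95) were closest to each other, and Vegfa had r between -0.22 and 0.22 with every other member.

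To determine whether the genotype changed these genes, the UMIs of each mouse were added up within a cell type and compared by the quasi-likelihood test of edgeR. In hepatocytes 6 of the 10 members had enough counts and none passed the threshold (FDR below 0.05). The background was also empty, with 0% of 11810 genes called, and 5.91% of genes had an unadjusted p under 0.05, which 1 member had. DESeq2 called none of these members and 21 genes in all. Vegfa, the hepatocyte ligand, had a log2 fold change of -0.20 between HNKO and WT mice (SE 0.26, FDR 0.89), which was -0.51 without HNKO mouse 2 and -0.011 without HNKO mouse 1. Nrp1 had -0.76 (SE 0.54, FDR 0.83), from 231, 216 and 51.8 CPM in WT mice 1, 2 and 3 and 58.0, 154 and 121 CPM in HNKO mice 1, 2 and 3. WT mouse 3 was the lowest of all and the genotypes overlapped, and the value ran from -1.19 without WT mouse 3 to -0.42 without WT mouse 1. Nrp2 had -0.53 (SE 0.35, FDR 0.83) and ranged from 33.0 to 54.3 CPM in WT and from 15.5 to 45.4 CPM in HNKO mice. Tek and Angpt2 had -0.26 (SE 0.32) and 0.02 (SE 0.40). Over the tested members the median log2 fold change was -0.39, against 0.02 over all genes tested.

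The member with the unadjusted p under 0.05 in hepatocytes was Angpt1. It was at 7.25, 23.3 and 14.97 CPM in WT mice 1, 2 and 3 and at 4.90, 5.47 and 7.66 CPM in HNKO mice 1, 2 and 3, from 25.6 to 91.9 UMIs per WT mouse and 32.5 to 42.1 per HNKO mouse. WT mice 2 and 3 lay above all HNKO mice and WT mouse 1 lay among them. The log2 fold change was -1.53 (SE 0.38, edgeR unadjusted p = 0.0038, FDR 0.82, and FDR 0.0699 to 0.977 over the alternatives), so that it did not pass the threshold. Stellate nuclei and cholangiocytes had more Angpt1 per UMI than hepatocytes. The summed stellate markers in the hepatocyte sums came to 41.9, 49.6 and 91.1 CPM in WT mice 1, 2 and 3 and to 198, 32.9 and 126 CPM in HNKO mice 1, 2 and 3, with 10 of 10 markers detected and Reln the largest at 27.2 to 189 CPM. The summed cholangiocyte markers in these sums came to 315, 346 and 305 CPM for WT mice 1, 2 and 3 and to 635, 300.4 and 517 CPM for HNKO mice 1, 2 and 3, with 7 of 8 markers detected. The part of either cell type in the hepatocyte Angpt1 values was not tested.

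In endothelial nuclei 7 of the 10 members were tested, all of them receptors or co-receptors. None passed the threshold, the background was 0% of 2743 genes called, and 3.79% of genes and no member had an unadjusted p under 0.05. DESeq2 called no member and 1 gene. The log2 fold changes were -0.24 for Kdr (SE 0.27), -0.23 for Flt1 (SE 0.23), 0.35 for Flt4 (SE 0.30), -0.25 for Nrp1 (SE 0.27), -0.40 for Nrp2 (SE 0.24), -0.01 for Tek (SE 0.24) and 0.49 for Tie1 (SE 0.51). The FDR was 0.996 for each of the 7. Their median was -0.23, against -0.003 over all genes tested. In these sums of 26 to 71 nuclei per mouse the interval of plus and minus 2 SE ran from -0.78 to 0.31 for Kdr and from -0.25 to 0.95 for Flt4. The value of Nrp1 was 0.02 without HNKO mouse 1.

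**Figure D5:**
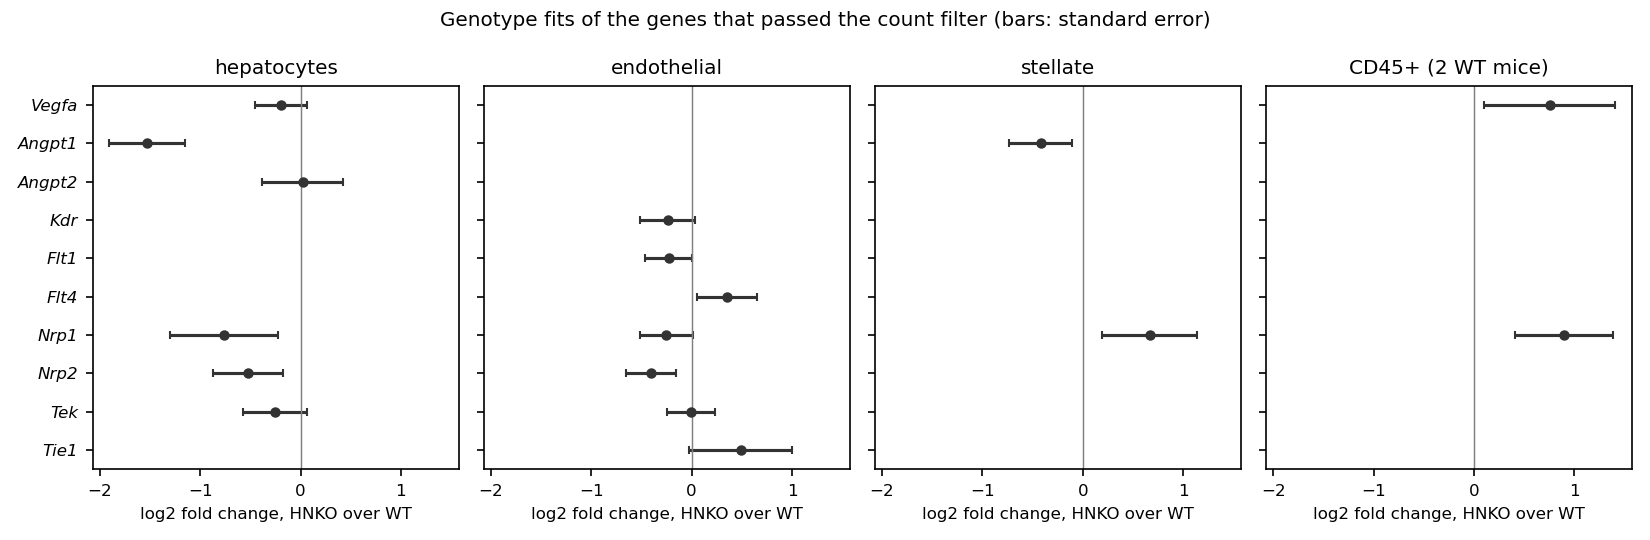
Log2 fold change of HNKO over WT mice with its standard error for each member that passed the count filter in hepatocytes, endothelial, stellate and CD45+ nuclei (horizontal axis, 0 marked by a line). None passed an FDR of 0.05, and Angpt1 in hepatocytes at -1.53 was farthest from 0.

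In stellate nuclei Angpt1 and Nrp1 were tested. The log2 fold change was -0.42 for Angpt1 (SE 0.32, FDR 0.83) and 0.67 for Nrp1 (SE 0.47, FDR 0.81). Nrp1 was at 173, 88.2 and 389 CPM in WT mice 1, 2 and 3 and at 520, 240 and 340 CPM in HNKO mice 1, 2 and 3, with WT mouse 3 among the HNKO mice, and the log2 fold change was 1.38 without WT mouse 3 and 0.29 without WT mouse 2. The background was 0% of 2266 genes called, with 7.06% at an unadjusted p under 0.05 and no member among them. DESeq2 called no member and 1 gene. In CD45+ nuclei, where WT mouse 3 was left out with 7 nuclei, Nrp1 had 0.90 (SE 0.49, FDR 0.67) and Vegfa 0.76 (SE 0.65, FDR 0.86), the background was 0% of 2703 genes called with 8.21% at an unadjusted p under 0.05, no member was among these, and DESeq2 called no member and 4 genes. CD45+ Nrp1 was at 203 and 117 CPM in WT mice 1 and 2 and at 329, 196 and 392 CPM in HNKO mice 1, 2 and 3, with WT mouse 1 above HNKO mouse 2. The CD45+ sums pool the clusters CD45+ 1, CD45+ 2 and CD45+ 3. Nrp1 was at 467, 76.0 and 46.0 CPM in these clusters and Vegfa at 71.6, 147 and 80.4 CPM. The part of the cluster make-up of each mouse in the CD45+ fold changes was not tested. Kupffer nuclei and cholangiocytes could not be tested, since no WT mouse had 10 nuclei of either.

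For the sum of all nuclei of a mouse, all 10 members could be tested. None passed the threshold, against 0% of 13070 genes called, and none had an unadjusted p under 0.05, against 8.52% of genes. DESeq2 called no member and 63 genes. The values ran from -0.51 for Nrp1 (SE 0.39) to 0.63 for Tie1 (SE 0.33), with 0.59 for Flt4 (SE 0.40), -0.42 for Nrp2 (SE 0.26), -0.42 for Angpt1 (SE 0.25) and -0.28 for Vegfa (SE 0.28). In such sums a change in the number of cells of a type and a change of RNA per cell cannot be told apart. The direct test of whether the genotype effect differed between hepatocytes and endothelial nuclei called no member, against 0.113% of 11517 genes (13 genes), and 5.64% of genes and no member had an unadjusted p under 0.05. DESeq2 called no member and 2 genes. The difference (hepatocyte effect minus endothelial effect) was -0.23 for Vegfa (SE 0.47), -0.42 for Nrp1 (SE 0.28), -0.28 for Nrp2 (SE 0.33) and -1.01 for Flt4 (SE 0.59), where the median of all genes was -0.16. For Angpt1, with 1 endothelial UMI in all, the value has no meaning and is not given.

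Of the 3 values per mouse that do not depend on library scaling, only the share of Vegfa UMIs found in hepatocytes did not overlap between genotypes. WT mice 1, 2 and 3 had 98.6%, 98.8% and 99.1% there, whereas HNKO mice 1, 2 and 3 had 94.7%, 97.4% and 93.6%, a difference of -3.60 percentage points (two-sided exact permutation p = 0.1, the smallest that 3 against 3 mice allow, and 0.3 after Benjamini-Hochberg adjustment over 3 values). Hepatocytes also held a lower share of all UMIs in HNKO mice, with 85.5%, 92.1% and 85.9% in HNKO mice 1, 2 and 3 against 93.6%, 94.6% and 94.6% in WT mice 1, 2 and 3. Kdr made up 50.7 ± 8.01% of Kdr and Flt1 UMIs in endothelial nuclei of WT mice and 49.9 ± 5.81% in HNKO mice (SD, n = 3 each, two-sided exact permutation p = 0.9, adjusted 1). Angpt2 made up 13.7 ± 6.91% of Angpt1 and Angpt2 UMIs in WT mice and 14.5 ± 2.68% in HNKO mice (two-sided exact permutation p = 1, adjusted 1).

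The other genes of both pathways were examined as 8 lists, and no listed gene passed the threshold in any cell type, in all nuclei or in the interaction. The other ligands (12 genes in the matrix) had their highest level in stellate nuclei for 4 of the 7 with at least 100 UMIs, a count that ranks levels and not shares of UMIs. Vegfc, the ligand of Flt4, was at 515 CPM in stellate, 167 CPM in endothelial and 40.4 CPM in hepatocyte nuclei, and Sema3d and Sema3a, ligands of neuropilins, were at 423 and 155 CPM in stellate nuclei. Sema3f, a ligand of Nrp2, was highest in endothelial nuclei at 74.99 CPM. In all nuclei 8 were tested, with a median log2 fold change of -0.19 against 0.02 over all genes. Sema3e had -1.10 (SE 0.57), Sema3d -0.54 (SE 0.37) and Sema3f 0.41 (SE 0.32).

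The receptor partners (15 genes) included Ptprb, the phosphatase that restrains TIE2, at 3033 CPM in endothelial nuclei and 5.57 CPM in hepatocytes, and the plexins Plxnd1 and Plxna4 that pair with neuropilins, at 222 and 468 CPM in endothelial and 46.2 and 600 CPM in stellate nuclei. In all nuclei 13 were tested, 0 passed, and the median was 0.47 against 0.02. Within types it was 0.20 in hepatocytes (8 tested), 0.04 in endothelial nuclei (8), -0.13 in stellate nuclei (7) and 0.93 in CD45+ nuclei (4). The median of all genes tested lay between -0.003 and 0.02 in these types. In all nuclei Gipc1, an adaptor of neuropilin 1, had 1.16 (SE 0.47, FDR 0.57) and Itgb1 0.34 (SE 0.14, FDR 0.57). Cdh5, the cadherin of endothelial junctions, had 0.81 (SE 0.37, FDR 0.61). Itgb1 was at 58.4, 59.1 and 57.0 CPM in WT mice 1, 2 and 3 and at 74.5, 79.1 and 105 CPM in HNKO mice 1, 2 and 3. The non-hepatocyte types, which all have more Itgb1 and Gipc1 per UMI than hepatocytes, held a larger share of the UMIs in HNKO mice. Cdh5 was highest per UMI in Kupffer and endothelial nuclei. The part of the non-hepatocyte types in these values and in the median of all nuclei was not tested.

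Of the 27 downstream genes, all were tested in all nuclei and 0 passed, with a median of 0.16. Erg, an ETS factor of the endothelium, was at 367 CPM in endothelial nuclei and 1.14 CPM in hepatocytes, and Nos3, endothelial nitric oxide synthase, at 99.3 and 0.366 CPM. Src had 1.70 (SE 0.46, unadjusted p = 0.0062, FDR 0.54 by edgeR), Mapk3 0.83 (SE 0.30) and Prkcb 0.96 (SE 0.46). Src was highest per UMI in cholangiocytes (66.4 CPM, against 2.71 CPM in hepatocytes), which were 0 to 1 nuclei per WT mouse and 10 to 58 per HNKO mouse, and their part in the value was not tested.

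Of the 8 genes that set the hypoxia response, which drives Vegfa transcription, all were tested in hepatocytes and 0 passed, with a median of -0.07. Epas1 (HIF2A) had -0.31 (SE 0.35), Vhl 0.31 (SE 0.47) and Arnt -0.10 (SE 0.19). Of the 12 hypoxia targets 8 were tested in all nuclei and 0 passed. Their log2 fold changes had both signs, and 1 value above 0 and 1 below 0 had an unadjusted p under 0.05 by edgeR, against 8.52% of all genes tested. The glucose transporter Slc2a1 had 1.22 (SE 0.41, FDR 0.54), whereas Pdk1, which restrains pyruvate oxidation, had -0.73 (SE 0.27, FDR 0.54) and Bnip3, a mitophagy receptor, -0.79 (SE 0.37, FDR 0.61). Pdk1 was at 115, 96.2 and 99.4 CPM in WT mice 1, 2 and 3 and at 52.2, 97.3 and 64.5 CPM in HNKO mice 1, 2 and 3, and HNKO mouse 2 lay among the WT mice. Slc2a1 was at 4.26 CPM in hepatocytes, 1.06 CPM in endothelial nuclei and 10.6 CPM in CD45+ nuclei and cholangiocytes. Pdk1 and Bnip3 were highest in hepatocytes, at 88.7 and 208 CPM. The part of the cell type make-up in these values was not tested.

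The endothelial response genes (15 genes) were too sparse for most tests, with 3 reaching 100 UMIs and 1 tested in endothelial nuclei. In the interaction 7 were tested and 0 passed, and Jag1, a Notch ligand, had 1.31 (SE 0.93), with larger errors for Pdgfb (3.61, SE 2.09) and Nid2 (-6.61, SE 4.47). Of the sinusoidal genes 11 of 11 with at least 100 UMIs were highest in endothelial nuclei. All 12 were tested there and 0 passed, with a median of -0.11 against -0.003. The mannose receptor Mrc1 had -0.54 (SE 0.18, unadjusted p = 0.012, FDR 0.996 by edgeR). It was at 1999, 1711 and 1555 CPM in WT mice 1, 2 and 3 and at 1346, 1271 and 1014 CPM in HNKO mice 1, 2 and 3. Its log2 fold change turned to 0.039 in nuclei with at least 50% of the hashtag counts from their own hashtag (1 WT and 2 HNKO mice). Oit3 had -0.57 (SE 0.34) and Fcgr2b, an inhibitory antibody receptor, 0.34 (SE 0.26). Of the 14 genes of larger and lymphatic vessels 11 were tested in the interaction and 0 passed. Gja5, an arterial connexin, had 3.70 (SE 1.59), Wnt2 1.71 (SE 1.07) and Pecam1 -0.63 (SE 0.44), the first from at most 0.728 CPM in the hepatocyte sums.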

How the data were processed

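The authors hashtagged, pooled and sequenced nuclei from the livers of 6 mice, 3 of each genotype (10x Genomics, 3′ end), giving 2 pools of RNA and 2 of hashtag libraries. Cell Ranger version 5.0.1 and Alevin are named in the submitters' notes, with the GRCm38 genome, and the study's methods name a GENCODE gene model. The authors deposited estimated counts of UMIs per gene and nucleus, of which 10.1% of nonzero values were not whole within 0.001, and hashtag counts. The authors had kept nuclei with a single hashtag call and filtered them by hashtag counts and genes detected, and no doublet caller was run here. The deposited matrix of SCTransform-corrected values was not used. The 21 deposited cluster names were grouped into 6 types, and the mouse and genotype of a nucleus were taken from the deposited hashtag annotation, with mice numbered by hashtag name.

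UMIs were summed per mouse and type and rounded. A mouse entered with at least 10 nuclei of the type. Sums were tested with edgeR version 4.0.16 (filterByExpr, TMM, quasi-likelihood F test, genotype alone, two-sided, Benjamini-Hochberg FDR 0.05 over all genes tested) in R version 4.3.3. The interaction of genotype with cell type had mouse as a block, because both sums come from the same animal. Shares were compared by exact permutation tests (scipy version 1.17.1). Alternatives were RLE size factors, no count filter, DESeq2 version 1.42.0, nuclei with at least 50% of hashtag counts from their own hashtag, each mouse left out in turn, thinning to 1000 UMIs per nucleus and an equal weight per nucleus. The fits were also run on simulated data with large changes in well-counted genes and a fixed spread, which does not show their power for the genes reported here.

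The members and gene lists were chosen with earlier results of these data known. Named were the 10 members, Nampt, and, of each list, genes that passed and otherwise the 3 with the smallest unadjusted p in the comparison where most of the list was tested. Genes named only for their level in a cell type, and the splits by Stab2, Vwf and Reln, were chosen after their values were seen. The genes most like Vegfa in pattern are not reported here. Whether the counting used strand is not given in the sources used here. P-values of the fits set the genotype difference against the spread between the mice that entered. These were the 6 mice, 5 for CD45+ nuclei, and fewer where an alternative left mice out.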

Additional observations from a re-analysis of the deposited data

How the results depend on the processing

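No member passed the threshold in any cell type, in all nuclei or in the interaction under any alternative that could be fitted, with 0 calls without each mouse in turn. The count of all genes called ranged from 0 to 35 in hepatocytes, 0 to 16 in endothelial nuclei, 0 to 47 in stellate nuclei, 0 to 23 in CD45+ nuclei, 0 to 90 in all nuclei and 0 to 32 in the interaction, where it was 13. Of 612 alternative values for single genes, 575 kept their direction and side of the threshold and 37 turned sign. The causes were not tested. With hashtag-pure nuclei, the log2 change became -0.013 for Angpt2 in hepatocytes. In all nuclei it became 0.12 for Angpt2, 0.47 for Kdr and 0.50 for Flt1. In the interaction it became -8.11 for Angpt2, 0.22 for Kdr, 0.46 for Flt1 and 0.64 for Nrp1. In endothelial nuclei, fitted on 1 WT and 2 HNKO mice with the lone WT mouse assumed to vary like the others, it became 0.039 for Mrc1 and -0.11 for Fcgr2b. With this choice stellate and CD45+ nuclei could not be fitted. Without the count filter, Tek in endothelial nuclei was 0.13 and Kdr in the interaction 0.023, which was 0.088 with RLE size factors and 0.084 with DESeq2.

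Leaving out 1 mouse at a time, the log2 change ranged as follows where its sign turned. In hepatocytes it was Angpt2 -0.34 to 0.28, Epas1 -0.56 to 0.000205, Arnt -0.19 to 0.0238, Nampt -0.31 to 0.25. In endothelial nuclei it was Nrp1 -0.42 to 0.0204, Tek -0.15 to 0.19. In all nuclei it was Angpt2 -0.39 to 0.0355, Kdr -0.23 to 0.12, Flt1 -0.30 to 0.14, Tek -0.0275 to 0.24. In the interaction it was Kdr -0.19 to 0.11, Flt1 -1.02 to 0.0332, Tie1 -0.45 to 0.67. Among values that kept their sign, those of Vegfa ranged from -0.51 to -0.011 in hepatocytes and from -0.63 to -0.061 in all nuclei, and those of Nrp1 from -1.19 to -0.42 in hepatocytes and from 0.29 to 1.38 in stellate nuclei. The difference in the Kdr share ranged from -5.36 to 2.51 percentage points. The difference in the Angpt2 share ranged from -1.51 to 4.78 percentage points. The difference in the Kdr share was 0.11 percentage points with an equal weight per nucleus, and that in the Angpt2 share was -1.88 after thinning and -0.72 with an equal weight. No paired analysis was possible because the mice carry no numbers that tie a WT to an HNKO mouse. The interaction has mouse as its replicate block, and with no replicate block it also called 0 members. The depth of the endothelial (89294 to 317702 UMIs per mouse) and stellate sums (56672 to 172994) was low, and 7 and 2 members passed the count filter there.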
